A study of Mus musculus with 12 samples.

Results

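The 7 genes described here are Pou3f1, Fgf5, Otx2, Foxd3, Zic2, Sox4 and Tcf15, which are used as indicators of the formative and primed states that follow naive pluripotency. They are given as a list of names with no threshold on their values, and their identifiers were found in each of the 12 count tables, among 52550 gene identifiers in all. The 7 genes and the gene lists set beside them were chosen with earlier results of these data known. Their counts below are therefore no independent test against the shares over all genes. Messenger RNA of mouse embryonic stem cells was sequenced from 6 groups with 2 libraries each. The groups were unmodified cells in 2iL with JQ1, unmodified cells in 2iL with DMSO, cells labelled GSK3 knockout in serum/LIF with JQ1, the same knockout label in serum/LIF with DMSO, unmodified cells in serum/LIF with JQ1, and unmodified cells in serum/LIF with DMSO. The 2iL medium was serum-free and held LIF, the MEK inhibitor PD0325901 and, by the series' design, a GSK3 inhibitor that the growth protocol gives without its name. JQ1, an inhibitor of the bromodomains of BET proteins, was used at 100 nM, and cells in the JQ1 and DMSO groups were harvested after 60 h. All groups received LIF. Cells in serum/LIF had been grown on mitomycin-treated mouse embryonic fibroblasts and were moved to gelatin for the experiment, whereas the protocol gives gelatin alone for 2iL. The labels name neither the strain or line, the alleles of the knockout nor the number of knockout clones, and nothing in them tells whether the 2 libraries of a group came from 2 cultures. The p-values therefore cover no more than the spread between libraries, which may be technical.

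In the mouse embryo, naive cells of the preimplantation epiblast move through a formative state before they become the primed epiblast that can enter gastrulation. Otx2 and Pou3f1 (also called Oct6) encode homeodomain and POU domain factors that act early in this transition, Fgf5 encodes a secreted growth factor that is the usual marker of the postimplantation epiblast, and Foxd3, Zic2, Sox4 and Tcf15 encode further DNA-binding regulators of it. The 2iL medium blocks MEK and GSK3 and holds cells near the naive state, while serum/LIF cultures mix naive cells with cells that have moved towards the formative state. Loss of GSK3 stabilises beta-catenin, as the GSK3 inhibitor does, but leaves MEK active.

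The libraries held 17869865 to 48723436 expected read counts, and levels are given below in CPM, the count as a share of the library's total after scaling for composition. All 7 genes passed the filter on low counts and were tested among 16987 genes. A level of 3 counts, taken as the floor of detection, corresponded to 0.0611 to 0.171 CPM, a limit that covers counting error only. The 5 general markers of embryonic stem cells (Pou5f1, Sox2, Sall4, Zfp42 and Nanog) were detected in all groups, with summed levels of 2319 to 3172 CPM in 2iL and knockout cells with JQ1, 2004 to 2892 CPM in 2iL and knockout cells with DMSO, and 981.5 to 1443 CPM in unmodified serum/LIF cells. Gsk3a had 23.4 to 32.9 CPM in the 4 knockout libraries against 65.1 to 129.9 CPM in the 8 others. Gsk3b had 42.5 to 61.1 CPM in the knockout libraries, against 72.2 to 157.7 CPM elsewhere. Neither range overlapped, and both transcripts were still detected in the knockout. Mitochondrially encoded genes took a lower share of the counts with JQ1 than with DMSO in each setting, without overlap, at 4.67% and 4.82% against 6.41% and 6.75% in 2iL, 7.20% and 8.43% against 10.7% and 11.2% in knockout cells, and 6.45% and 7.51% against 9.44% and 11.9% in unmodified serum/LIF cells. The part of this share in the JQ1 results was not tested.

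Levels of 8 fibroblast marker genes differed between the groups. Their summed level was 4.70 to 6.21 CPM in 2iL with JQ1, 7.92 to 11.98 CPM in 2iL with DMSO, 143.5 to 186 CPM in knockout cells with JQ1, 252 to 409 CPM in knockout cells with DMSO, 312 to 317 CPM in unmodified serum/LIF cells with JQ1, and 765 to 768 CPM in unmodified serum/LIF cells with DMSO. Of these markers, Postn, Dcn and Lum were at 0 in all 2iL libraries, and Col3a1 was also at 0 in 2iL with DMSO. Dcn and Lum were low everywhere, with highest group means of 3.17 and 0.540 CPM, both in unmodified serum/LIF cells with DMSO. Pdgfrb was present in 2iL, at 4.571 to 5.865 CPM with JQ1 and 6.679 to 9.821 CPM with DMSO, and made up most of the sum there. The part of these markers in the results below was not tested. In bulk libraries of this kind, fewer cells of a type and less RNA per cell cannot be told apart.

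Promoter sequences were at hand for 4 of the 7 genes, Fgf5, Otx2, Sox4 and Foxd3, and they are shown because each of these genes fell with JQ1 in at least 1 setting below. Each sequence holds the 250 bases before the transcription start, read 5′ to 3′ on the strand of the gene, from RefSeq on GRCm38.p6. They lie at chr5:98253934-98254183 (plus strand) for Fgf5, chr14:48667645-48667894 (minus strand) for the most upstream of 4 RefSeq Otx2 starts, chr13:28953700-28953949 (minus strand) for Sox4 and chr4:99656049-99656298 (plus strand) for Foxd3. In the GENCODE annotation, Otx2 spans chr14:48657677-48673819, so the Otx2 window lies inside the annotated gene. Sox4 spans chr13:28948919-28953713 there, so the Sox4 window overlaps the 5′ end of its gene. Capitals mark matches to the motifs searched.
Fgf5: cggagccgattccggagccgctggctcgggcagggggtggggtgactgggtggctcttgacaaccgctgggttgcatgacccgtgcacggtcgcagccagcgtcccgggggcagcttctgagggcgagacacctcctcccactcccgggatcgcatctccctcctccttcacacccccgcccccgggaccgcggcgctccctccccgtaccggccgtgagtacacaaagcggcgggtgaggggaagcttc
Otx2: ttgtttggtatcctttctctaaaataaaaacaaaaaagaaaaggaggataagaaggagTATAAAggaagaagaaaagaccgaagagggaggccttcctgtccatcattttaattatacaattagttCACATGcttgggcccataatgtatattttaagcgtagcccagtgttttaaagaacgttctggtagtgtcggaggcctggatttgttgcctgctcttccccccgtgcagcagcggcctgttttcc
Sox4: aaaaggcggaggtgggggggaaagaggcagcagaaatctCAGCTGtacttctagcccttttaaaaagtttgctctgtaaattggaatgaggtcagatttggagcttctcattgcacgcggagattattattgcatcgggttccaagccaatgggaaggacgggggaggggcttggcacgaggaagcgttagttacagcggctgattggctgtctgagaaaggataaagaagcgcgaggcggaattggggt
Foxd3: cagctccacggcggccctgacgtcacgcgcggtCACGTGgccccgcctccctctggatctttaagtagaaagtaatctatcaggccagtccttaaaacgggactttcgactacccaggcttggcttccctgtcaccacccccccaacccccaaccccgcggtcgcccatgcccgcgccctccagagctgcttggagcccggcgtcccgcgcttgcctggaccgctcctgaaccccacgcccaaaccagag
The Fgf5 window is 70.8% G and C and holds none of the motifs. The Otx2 window shown is the AT-rich exception at 42.0%, with a TATAAA match 192 to 187 bases before this start and an E-box, CACATG, 124 to 119 bases before it. The windows of the other Otx2 starts, not shown, had 49.2%, 48.4% and 53.6% G and C and held no TATAAA. An OTX core lay in the window with 48.4%. The Sox4 window (50.8% G and C) holds the E-box CAGCTG 211 to 206 bases before the start, and the Foxd3 window (65.6%) holds the E-box CACGTG 217 to 212 bases before it. Over 32851 RefSeq starts the median was 52.4% G and C, with quartiles at 45.2% and 61.2%. The observed over expected CpG ratio was 0.77 for Fgf5, 0.55 for the Otx2 window shown, 0.80 for Sox4 and 0.85 for Foxd3, against a median of 0.37 over all starts. The motifs were searched on both strands and none of the matches shown overlaps another. They were the TCF/LEF core CTTTGA, found before 13.83% of all starts, the octamer ATGCAAAT (1.60%), the OTX core TAATCC (6.25%), the E-box CANNTG (66.22%), TATAAA (12.37%) and the SOX core AACAAT (9.42%). A match describes letters in this window and not a bound site.

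Because CPM depends on transcript length, the 7 genes were ranked among themselves in TPM, the deposited unit that allows for length. In unmodified serum/LIF cells with DMSO, Sox4 was the most abundant at 44.1 ± 1.09 TPM (SD, n = 2), followed by Pou3f1 at 31.5 ± 5.75 TPM and Otx2 at 29.2 ± 9.52 TPM. Tcf15 had 20.5 ± 3.63 TPM, Zic2 17.2 ± 4.95 TPM and Foxd3 12.5 ± 2.77 TPM, and Fgf5 was the least abundant at 8.51 ± 0.799 TPM. The libraries of each gene from Pou3f1 to Foxd3 overlapped those of the next in this order, whereas Sox4 at the top and Fgf5 at the bottom stood apart from their neighbours. In 2iL with DMSO, Zic2 (25.4 ± 3.87 TPM), Tcf15 (18.5 ± 1.91 TPM) and Foxd3 (12.04 ± 3.71 TPM) were the 3 most abundant and Pou3f1 (0.355 ± 0.0919 TPM) and Fgf5 (0.125 ± 0.106 TPM) were the 2 least abundant. In knockout cells with DMSO, Tcf15 was at the top with 63.9 ± 2.21 TPM, and Pou3f1 (0.670 ± 0.0141 TPM) and Fgf5 (0.690 ± 0.170 TPM) were again at the bottom.

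The groups were also ordered for each gene by mean CPM, with neighbours called apart where their libraries did not overlap. Pou3f1 and Sox4 were highest in unmodified serum/LIF cells with JQ1, then with DMSO, then in the knockout and last in 2iL, and the only overlapping neighbours were the 2 Pou3f1 groups in 2iL. Fgf5 and Otx2 were highest in unmodified serum/LIF cells with DMSO, then with JQ1. Among the lower groups, 2iL with DMSO overlapped knockout cells with JQ1 for Fgf5 and knockout cells with DMSO for Otx2. Foxd3 had 4 overlapping groups at the top, with means of 20.4 to 25.7 CPM, and stood apart in unmodified serum/LIF cells with JQ1 (10.6 CPM) and in knockout cells with JQ1 (1.31 CPM). Zic2 was highest in 2iL with JQ1 (82.3 CPM), and its 3 lowest groups, with means of 24.9 to 31.9 CPM, overlapped. Tcf15 was highest in knockout cells (41.0 CPM with DMSO) and lowest in 2iL with JQ1 (3.43 CPM), and its groups in 2iL and unmodified serum/LIF cells with DMSO overlapped.

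**Figure D1:**
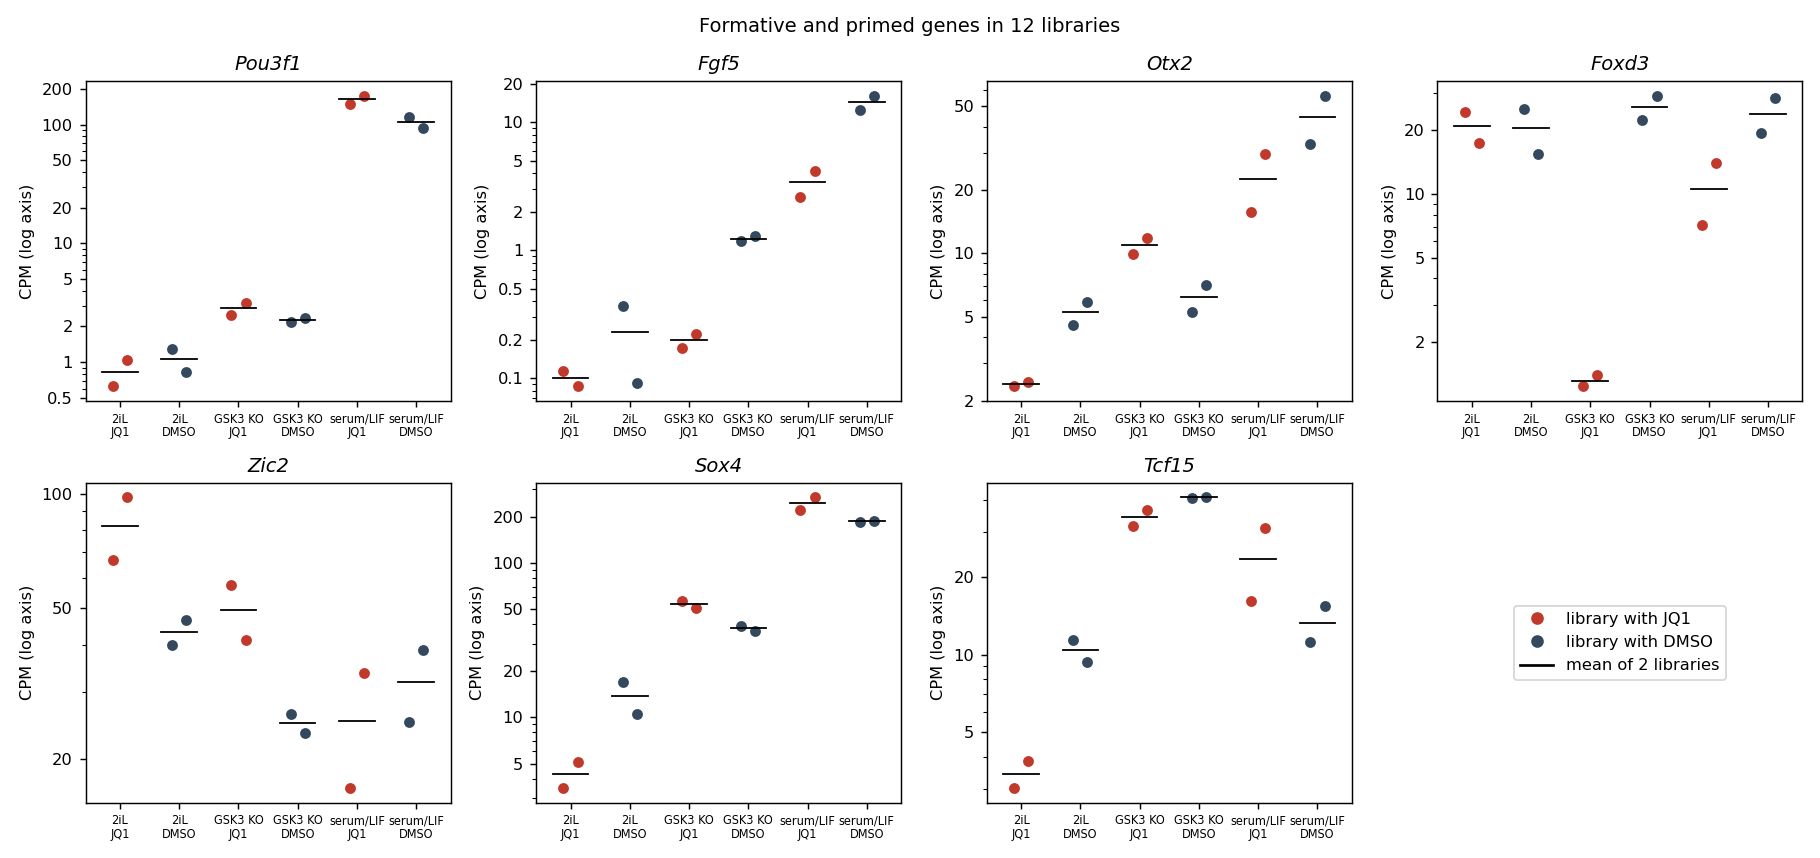
Level of each gene in the 12 libraries, in CPM on a log axis that differs between panels; each point is 1 library, red with JQ1 and dark blue with DMSO, and the bar is the mean of the 2 libraries of a group. Pou3f1 lies between 94.2 and 176 CPM in the 4 libraries of unmodified serum/LIF cells and no higher than 3.17 CPM elsewhere, and Foxd3 lies at 1.24 and 1.39 CPM in knockout cells with JQ1 and at or above 7.12 CPM in every other library.

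Culture in 2iL was compared with serum/LIF, and the knockout with unmodified cells in serum/LIF, in the DMSO groups. These 2 comparisons share the libraries of unmodified serum/LIF cells with DMSO. Of the 7 genes, 4, namely Pou3f1, Fgf5, Otx2 and Sox4, were lower in 2iL than in serum/LIF, where 54.8% of all tested genes passed, 26.5% as lower and 28.3% as higher. None of the 7 was higher in 2iL in the edgeR fit with the filter on low counts, at an unadjusted p under 0.05 there, or with DESeq2. Zic2 did pass in an edgeR fit without that filter (0.45, adjusted p = 0.00849). The same 4 genes were lower in knockout than in unmodified cells and 1, Tcf15, was higher, where 40.0% of all tested genes passed, 21.0% as lower and 18.9% as higher. A gene is said to have passed, to have risen or to have fallen when its Benjamini-Hochberg adjusted p over all 16987 genes was under 0.05 in edgeR's quasi-likelihood test. The median log2 fold change of the 7 genes was -3.08 for 2iL over serum/LIF and -2.31 for knockout over unmodified cells, beside medians over all tested genes of 0.04 and 0.01. The fibroblast markers given above were lower in the same direction, 7 of 7 tested in 2iL and 6 of 7 in the knockout.

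**Figure D2:**
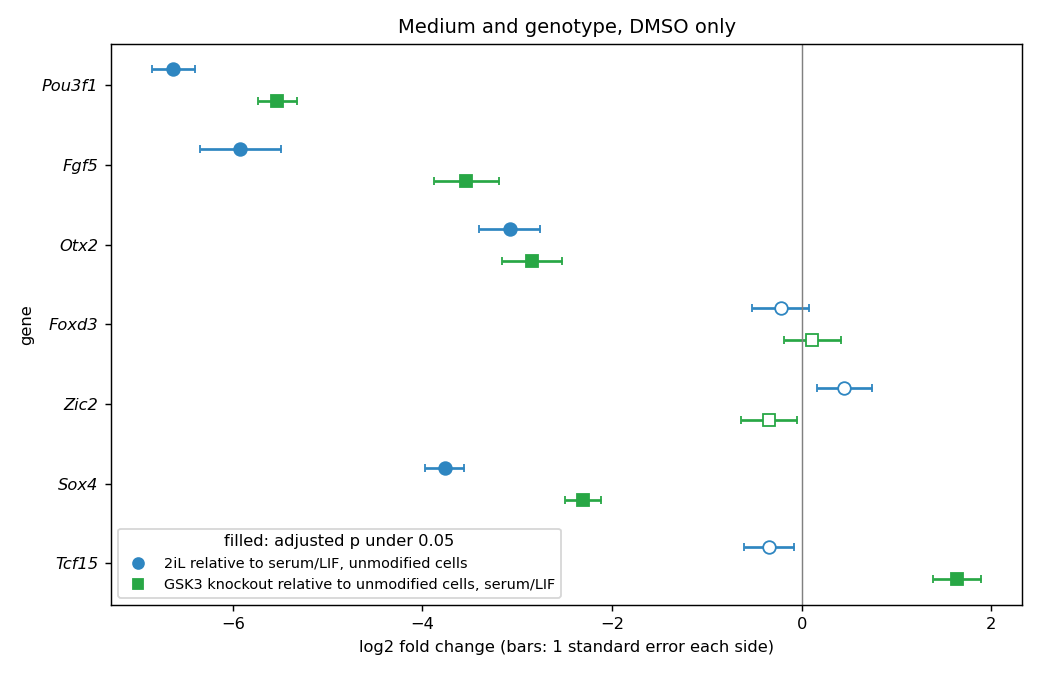
Log2 fold change of each gene in the DMSO groups, for 2iL over serum/LIF (blue circles) and for knockout over unmodified cells (green squares), with bars of 1 standard error on each side and filled symbols where the adjusted p is under 0.05. Pou3f1, Fgf5, Otx2 and Sox4 lie between -6.63 and -2.31 in both comparisons, while Foxd3 and Zic2 lie between -0.35 and 0.45.

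JQ1 was then compared with DMSO within each setting. In 2iL, 1 of the 7 genes rose (Zic2) and 3 fell (Otx2, Sox4 and Tcf15), where 28.5% of all genes passed, 11.2% as higher and 17.3% as lower. In knockout cells, 2 rose (Zic2 and Sox4) and 2 fell (Fgf5 and Foxd3), where 34.1% passed, 14.6% as higher and 19.5% as lower. In unmodified serum/LIF cells, 2 rose (Pou3f1 and Tcf15) and 3 fell (Fgf5, Otx2 and Foxd3), where 21.3% passed, 8.54% as higher and 12.8% as lower. The median log2 fold change of the 7 genes was -1.12 in 2iL, 0.30 in knockout cells and -0.33 in unmodified serum/LIF cells, beside medians over all genes of -0.06, -0.06 and -0.01. No gene of the 7 passed in the same direction in all 3 settings. The fibroblast markers also moved with JQ1, 3 of 7 tested being lower in 2iL, 5 of 7 in knockout cells (median -1.18) and 7 of 7 in unmodified serum/LIF cells (median -1.71).

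The difference between 2 JQ1 responses was tested in the same fit, and these differences share libraries. Between 2iL and serum/LIF, 2 of the 7 genes passed, Sox4 and Tcf15, both with the more negative response in 2iL, where 4.16% of all genes passed. Between knockout and unmodified cells in serum/LIF, Otx2 passed with the more positive response and Foxd3 with the more negative response in the knockout, where 4.37% of all genes passed. Between 2iL and the knockout, a comparison added after the data were seen, Foxd3 passed with the more positive response and Otx2, Sox4 and Tcf15 with the more negative response in 2iL, where 12.1% of all genes passed. The shares for a single direction were 1.35% higher and 2.80% lower, 1.25% higher and 3.12% lower, and 6.69% higher and 5.40% lower in these 3 comparisons.

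**Figure D3:**
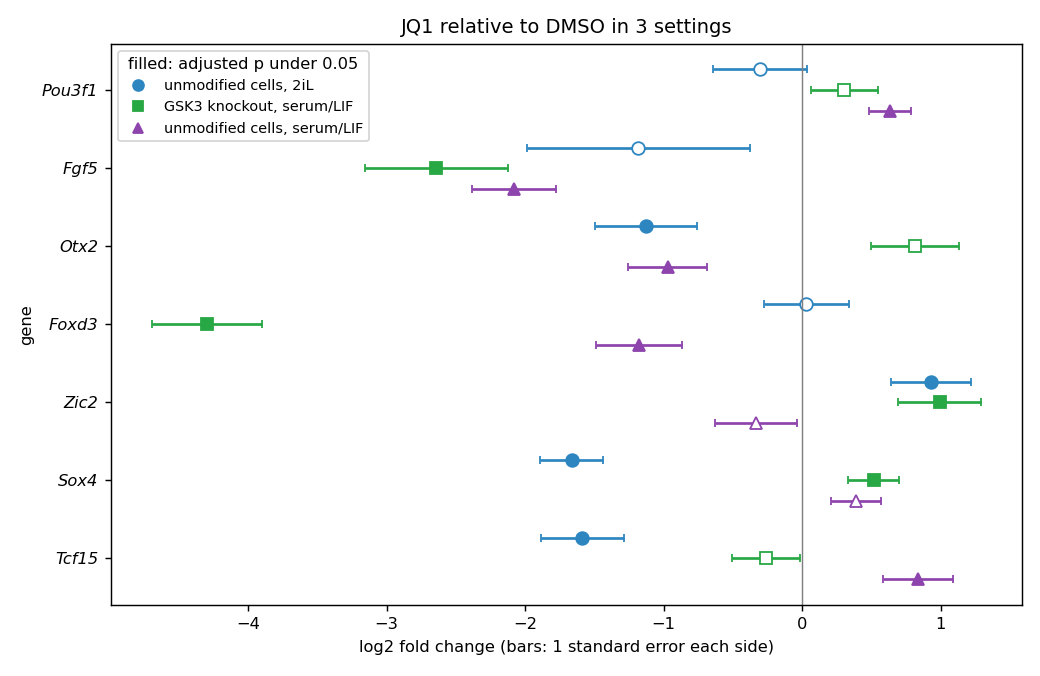
Log2 fold change of each gene with JQ1 over DMSO in 2iL (blue circles), in GSK3 knockout cells (green squares) and in unmodified serum/LIF cells (purple triangles), with bars of 1 standard error on each side and filled symbols where the adjusted p is under 0.05. Foxd3 spreads from -4.30 in the knockout to 0.03 in 2iL, and Sox4 and Tcf15 lie at -1.66 and -1.59 in 2iL but not below -0.26 in the other 2 settings.

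Fgf5, the secreted ligand among the 7, fell with JQ1 in both serum/LIF settings. The gene (ENSMUSG00000029337.2) lies on the plus strand at chr5:98254184-98277030, coordinates here and below being those of GENCODE M21 on mm10. It had 0.114 and 0.0862 CPM in 2iL with JQ1, against 0.367 and 0.0921 CPM in 2iL with DMSO. In knockout cells it had 0.172 and 0.223 CPM with JQ1, against 1.17 and 1.28 CPM with DMSO. With unmodified serum/LIF cells the values were 2.61 and 4.16 CPM with JQ1, against 12.5 and 16.1 CPM with DMSO. The JQ1 and DMSO libraries did not overlap in any setting except 2iL. The 2iL values correspond to 2 counts in each JQ1 library and to 8 and 2 counts in the DMSO libraries, at or near the floor of 3 counts. Those in knockout cells correspond to 5 and 4 counts with JQ1, also near the floor, against 23 counts in each DMSO library. The size of the change in knockout cells thus rests on few counts. With JQ1, Fgf5 fell by 2.64 ± 0.52 on the log2 scale (± standard error) in knockout cells (adjusted p = 0.0021) and by 2.08 ± 0.31 in unmodified serum/LIF cells (adjusted p = 0.00067), that is 6.24-fold and 4.23-fold. In 2iL the change was -1.182 ± 0.80 (adjusted p = 0.295). The responses in knockout and unmodified serum/LIF cells differed by -0.56 ± 0.61 (adjusted p = 0.616), a difference within its own error. Without JQ1, Fgf5 was lower in 2iL than in serum/LIF by a log2 change of -5.92 ± 0.43 (adjusted p = 1.35e-07), a size that rests on few counts and was -7.24 without DMSO replicate 1 in 2iL and -5.31 without DMSO replicate 2 in 2iL. It was lower in knockout than in unmodified cells by -3.54 ± 0.35 (adjusted p = 5.53e-06).

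Otx2, the homeodomain factor, fell with JQ1 in unmodified cells in either medium, and its change in the knockout was positive and did not pass. The gene (ENSMUSG00000021848.15) lies on the minus strand at chr14:48657677-48673819 with 11 annotated transcripts. It had 2.33 and 2.46 CPM in 2iL with JQ1, against 4.59 and 5.90 CPM in 2iL with DMSO. Knockout cells had 9.96 and 11.9 CPM with JQ1, against 5.28 and 7.10 CPM with DMSO. Unmodified serum/LIF cells gave 15.7 and 29.7 CPM with JQ1, against 33.0 and 56.2 CPM with DMSO. The JQ1 libraries were thus below both DMSO libraries in 2iL and in unmodified serum/LIF cells, and above both in the knockout. Otx2 fell by 1.12 ± 0.37 on the log2 scale in 2iL (adjusted p = 0.0372) and by 0.97 ± 0.29 in unmodified serum/LIF cells (adjusted p = 0.0296). In knockout cells the change was 0.81 ± 0.32 (adjusted p = 0.0652), and it passed in a fit of those 4 libraries alone (adjusted p = 0.00548) and with DESeq2 (adjusted p = 0.0351). The response differed between knockout and unmodified cells by 1.79 ± 0.43 (adjusted p = 0.035) and between 2iL and knockout by -1.94 (adjusted p = 0.0277). These calls rest on few libraries. The fall in 2iL lost its call without any 1 of the 4 libraries (adjusted p 0.0603 to 0.147), and the fall in unmodified serum/LIF cells did not pass in a fit of those 4 libraries alone (adjusted p = 0.0697). Leaving out DMSO replicate 2 brought that fall to -0.54 (adjusted p = 0.284), and leaving out JQ1 replicate 1 to -0.57 (adjusted p = 0.19). The difference between knockout and unmodified cells lost its call in 6 of 8 fits that left out 1 library (highest adjusted p 0.156), and that between 2iL and knockout in 6 of 8 (highest adjusted p 0.114), both keeping their direction. Without JQ1, Otx2 was lower in 2iL than in serum/LIF by -3.08 ± 0.32 (adjusted p = 3.73e-06) and lower in knockout than in unmodified cells by -2.84 ± 0.32 (adjusted p = 1.69e-05).

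Pou3f1, the POU domain factor, was most abundant in unmodified serum/LIF cells and rose there with JQ1. The gene (ENSMUSG00000090125.3) has 1 exon on the plus strand at chr4:124656807-124660655. It had 0.626 and 1.03 CPM in 2iL with JQ1, against 1.28 and 0.829 CPM in 2iL with DMSO. In knockout cells it had 2.51 and 3.17 CPM with JQ1, against 2.18 and 2.35 CPM with DMSO. With unmodified serum/LIF cells the values were 150.5 and 176 CPM with JQ1, against 115.7 and 94.2 CPM with DMSO. The JQ1 libraries were above both DMSO libraries in the last 2 settings and overlapped them in 2iL. The log2 change with JQ1 was 0.64 ± 0.15 in unmodified serum/LIF cells (adjusted p = 0.0109), 0.30 ± 0.24 in knockout cells (adjusted p = 0.354) and -0.31 ± 0.34 in 2iL (adjusted p = 0.534). Leaving out DMSO replicate 2 took the adjusted p of the rise to 0.0977, and leaving out JQ1 replicate 2 took it to 0.0536. No difference between settings passed for Pou3f1, the adjusted p being 0.204 for 2iL against serum/LIF. Without JQ1, it was lower in 2iL than in serum/LIF by -6.63 ± 0.22 (98.8-fold, adjusted p = 6.39e-10) and lower in knockout than in unmodified cells by -5.53 ± 0.21 (46.3-fold, adjusted p = 7.28e-09).

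Foxd3, a forkhead repressor and activator that is also a neural crest factor, fell steeply with JQ1 in knockout cells. The gene (ENSMUSG00000067261.4) has 1 exon on the plus strand at chr4:99656299-99658622. It had 24.3 and 17.5 CPM in 2iL with JQ1, against 25.3 and 15.5 CPM in 2iL with DMSO. Knockout cells had 1.24 and 1.39 CPM with JQ1, against 22.2 and 29.2 CPM with DMSO. Unmodified serum/LIF cells gave 7.12 and 13.99 CPM with JQ1, against 19.5 and 28.4 CPM with DMSO. The 2iL libraries overlapped, and the JQ1 libraries lay below both DMSO libraries in the other 2 settings. Foxd3 fell by 4.30 ± 0.39 on the log2 scale in knockout cells, 19.7-fold (adjusted p = 1.13e-05), and by 1.176 ± 0.31 in unmodified serum/LIF cells, 2.26-fold (adjusted p = 0.0184). In 2iL the change was 0.03 ± 0.30 (adjusted p = 0.963). The response in knockout cells was more negative than that in unmodified serum/LIF cells by -3.12 ± 0.51 (adjusted p = 0.00563), and the response in 2iL was more positive than that in knockout cells by 4.33 ± 0.50 (adjusted p = 0.00074). Between 2iL and unmodified serum/LIF cells the difference was 1.21 ± 0.44 (adjusted p = 0.16). Leaving out DMSO replicate 2 brought the fall in unmodified serum/LIF cells to -0.89 (adjusted p = 0.131) and leaving out JQ1 replicate 1 brought it to -0.76 (adjusted p = 0.129), while the other 3 calls passed in every alternative run. Without JQ1 the settings did not separate Foxd3, with changes of -0.22 ± 0.30 for 2iL over serum/LIF (adjusted p = 0.562) and 0.11 ± 0.30 for knockout over unmodified cells (adjusted p = 0.797). The summed level of 5 neural crest markers was 22.0 to 22.8 CPM in knockout cells with JQ1 and 11.3 to 13.97 CPM in knockout cells with DMSO, and their part in the Foxd3 result was not tested. Most of this sum was Tfap2a, with 19.1 ± 0.282 CPM with JQ1 against 10.4 ± 2.57 CPM with DMSO, which did not pass (adjusted p = 0.129). The low members went both ways, Pax3 being higher (1.19 ± 0.262 against 0.208 ± 0.137 CPM, adjusted p = 0.0153) and Sox10 lower (0 in both JQ1 libraries against 0.163 ± 0.0862 CPM, adjusted p = 0.0284).

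Zic2, a zinc finger factor that binds enhancers in embryonic stem cells, rose with JQ1 in 2iL and in knockout cells. The gene (ENSMUSG00000061524.8) lies on the plus strand at chr14:122475435-122479852. It had 66.7 and 97.8 CPM in 2iL with JQ1, against 39.9 and 46.6 CPM in 2iL with DMSO. In knockout cells it had 57.6 and 41.3 CPM with JQ1, against 26.3 and 23.5 CPM with DMSO. With unmodified serum/LIF cells the values were 16.8 and 33.6 CPM with JQ1, against 25.1 and 38.7 CPM with DMSO. The JQ1 libraries were above both DMSO libraries in 2iL and knockout cells and overlapped them in unmodified serum/LIF cells. Zic2 rose by 0.93 ± 0.29 on the log2 scale in 2iL (1.90-fold, adjusted p = 0.0306) and by 0.99 ± 0.30 in knockout cells (1.99-fold, adjusted p = 0.0217), and the change in unmodified serum/LIF cells was -0.33 ± 0.30 (adjusted p = 0.464). The rise in 2iL did not pass when DMSO replicate 1, DMSO replicate 2 or JQ1 replicate 2 was left out (adjusted p = 0.149, 0.0542 and 0.233). That in knockout cells did not pass when DMSO replicate 1, DMSO replicate 2 or JQ1 replicate 1 was left out (adjusted p = 0.075, 0.105 and 0.161). The response differed from that in unmodified serum/LIF cells by 1.26 ± 0.41 in 2iL (adjusted p = 0.121) and by 1.32 ± 0.42 in the knockout (adjusted p = 0.0915), neither of which passed, although both passed with DESeq2 (adjusted p = 0.0245 and 0.0154). Without JQ1, Zic2 had changes of 0.45 ± 0.29 for 2iL over serum/LIF (adjusted p = 0.211) and -0.35 ± 0.30 for knockout over unmodified cells (adjusted p = 0.383).

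Sox4, an HMG box factor of the SoxC group, fell with JQ1 in 2iL, where its level was already lowest. The gene (ENSMUSG00000076431.4) has 1 exon on the minus strand at chr13:28948919-28953713. It had 3.47 and 5.09 CPM in 2iL with JQ1, against 17.0 and 10.5 CPM in 2iL with DMSO. Knockout cells had 56.6 and 51.1 CPM with JQ1, against 38.9 and 36.5 CPM with DMSO. Unmodified serum/LIF cells gave 222 and 266.8 CPM with JQ1, against 185.1 and 188.5 CPM with DMSO. Groups overlapped in none of the 3 settings, and the 6 groups kept a fixed order, from unmodified serum/LIF cells with JQ1 down to 2iL with JQ1, in which no neighbours overlapped. Sox4 fell by 1.66 ± 0.23 on the log2 scale in 2iL, 3.16-fold (adjusted p = 0.00024), and rose by 0.51 ± 0.19 in knockout cells (1.43-fold, adjusted p = 0.0474). In unmodified serum/LIF cells the change was 0.39 ± 0.18 (adjusted p = 0.14). The rise in knockout cells lost its call without any 1 of the 4 libraries (adjusted p 0.0958 to 0.205) and with a stricter filter of 1 CPM (adjusted p = 0.06). The response in 2iL differed from that in unmodified serum/LIF cells by -2.05 ± 0.29 (adjusted p = 0.00223) and from that in knockout cells by -2.18 (adjusted p = 0.00156), and both differences passed in every alternative. Without JQ1, Sox4 was lower in 2iL than in serum/LIF by -3.76 ± 0.20 (adjusted p = 1.26e-08) and lower in knockout than in unmodified cells by -2.31 ± 0.19 (adjusted p = 1.48e-06).

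Tcf15, a basic helix-loop-helix factor of the epiblast and of paraxial mesoderm, was the gene of the 7 that was higher in knockout than in unmodified cells. The gene (ENSMUSG00000068079.5) has 2 exons on the plus strand at chr2:152143561-152149097. It had 3.02 and 3.84 CPM in 2iL with JQ1, against 11.4 and 9.35 CPM in 2iL with DMSO. In knockout cells it had 31.8 and 36.7 CPM with JQ1, against 41.0 and 41.1 CPM with DMSO. With unmodified serum/LIF cells the values were 16.1 and 31.1 CPM with JQ1, against 11.2 and 15.4 CPM with DMSO. The JQ1 libraries lay below both DMSO libraries in 2iL and knockout cells and above both in unmodified serum/LIF cells. Tcf15 fell by 1.59 ± 0.30 on the log2 scale in 2iL, 3.00-fold (adjusted p = 0.00199), rose by 0.84 ± 0.25 in unmodified serum/LIF cells (1.79-fold, adjusted p = 0.0335), and had a change of -0.26 ± 0.24 in knockout cells (adjusted p = 0.431). The rise did not pass in a fit of those 4 libraries alone (adjusted p = 0.0944), and leaving out JQ1 replicate 2 brought it to 0.31 (adjusted p = 0.337) and leaving out DMSO replicate 1 to 0.61 (adjusted p = 0.212). Between knockout and unmodified serum/LIF cells the response differed by -1.10 ± 0.35 (adjusted p = 0.0944), which did not pass. The response in 2iL differed from that in unmodified serum/LIF cells by -2.42 ± 0.39 (adjusted p = 0.00439), which passed in every alternative. It differed from that in knockout cells by -1.32 ± 0.39 (adjusted p = 0.0442), a call lost in 7 of 8 fits that left out 1 library (highest adjusted p 0.149). Without JQ1, Tcf15 was higher in knockout than in unmodified cells by 1.64 ± 0.25 (3.11-fold, adjusted p = 0.000244), and its change for 2iL over serum/LIF was -0.34 ± 0.26 (adjusted p = 0.286). The summed level of 5 paraxial mesoderm markers was 16.6 to 22.4 CPM in knockout cells with JQ1, 75.03 to 81.6 CPM in knockout cells with DMSO, 14.2 to 16.7 CPM in unmodified serum/LIF cells with JQ1 and 78.0 to 126 CPM in unmodified serum/LIF cells with DMSO, and their part in the Tcf15 results was not tested. This sum was almost all T, the Brachyury gene of early mesoderm, which fell with JQ1 in knockout cells (18.8 ± 4.49 CPM with JQ1 against 77.2 ± 4.35 CPM with DMSO, adjusted p = 6.75e-05) and in unmodified serum/LIF cells (14.2 ± 1.57 against 99.6 ± 34.5 CPM, adjusted p = 2.59e-05). Of the others, Foxc2 and Tbx6 did not pass with JQ1 in either setting, and Msgn1 and Meox1 did not pass the filter on low counts.

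Overlapping annotated genes could share reads with 4 of the 7, since the strand setting of the counting is not given in the sources used here. Antisense genes overlap Pou3f1 (Gm2164, at most 0.0204 CPM in any library), Otx2 (Otx2os1, at 0) and Sox4 (Gm26735, at most 0.171 CPM), and a miRNA gene within Foxd3 (Gm23366) was at 0. Gm49154 overlaps Otx2 on the same strand over 1726 bases and was not analysed here.

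A list of 16 other genes of the formative and primed states was then set beside the 7, all of which were tested. Of the 16, 12 were lower in 2iL than in serum/LIF and 3 were higher (Etv4, Etv5 and Tead2), with a median log2 fold change of -2.46, where 26.5% of all genes were lower and 28.3% higher. Those lower included the de novo DNA methyltransferase gene Dnmt3b, with 49.0 ± 2.41 CPM in 2iL against 513 ± 72.1 CPM in serum/LIF (SD, n = 2 each), and the N-cadherin gene Cdh2, with 4.69 ± 0.468 CPM against 103 ± 9.07 CPM. In knockout cells 12 of the 16 were lower than in unmodified cells and 1, the ETS factor gene Etv4, was higher, with a median of -1.11, where 21.0% of all genes were lower and 18.9% higher. The kinase gene Pim2 had 10.1 ± 0.533 CPM in knockout cells, against 167 ± 24.0 CPM in unmodified cells.

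With JQ1, Dnmt3b and Pim2 rose in all 3 settings. Dnmt3b had 103 ± 1.48 CPM with JQ1 against 49.0 ± 2.41 CPM with DMSO in 2iL, 189 ± 4.10 against 117 ± 11.8 CPM in knockout cells, and 872 ± 130.1 against 513 ± 72.1 CPM in unmodified serum/LIF cells. These were log2 changes of 1.08 ± 0.13, 0.69 ± 0.13 and 0.77 ± 0.13 (adjusted p = 0.000103, 0.00149 and 0.0014). Of the 16, 5 rose and 4 fell in 2iL (median 0.10), 6 rose and 5 fell in knockout cells (median 0.15), and 6 rose in unmodified serum/LIF cells (median 0.17). Over all genes, 11.2% rose and 17.3% fell in 2iL, 14.6% rose and 19.5% fell in knockout cells, and 8.54% rose in unmodified serum/LIF cells. The 6 that rose in unmodified serum/LIF cells were Dnmt3b, Grhl2, Lef1, Pim2, Sox3 and Tead2, while Fgf15, with the lowest change there, was at -0.97 (adjusted p = 0.0696). Cdh2 rose by 2.03 ± 0.21 in 2iL (adjusted p = 3.07e-05) and by 1.10 ± 0.18 in knockout cells (adjusted p = 0.000702). The other de novo methyltransferase gene, Dnmt3a, fell in 2iL (-1.04 ± 0.22, adjusted p = 0.00391) and in knockout cells (-0.84 ± 0.22, adjusted p = 0.0117). Grhl2, which encodes an epithelial transcription factor, fell by 1.21 ± 0.14 in knockout cells and rose by 0.52 ± 0.13 in unmodified serum/LIF cells, a difference of -1.73 ± 0.20 (adjusted p = 0.000958).

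**Figure D4:**
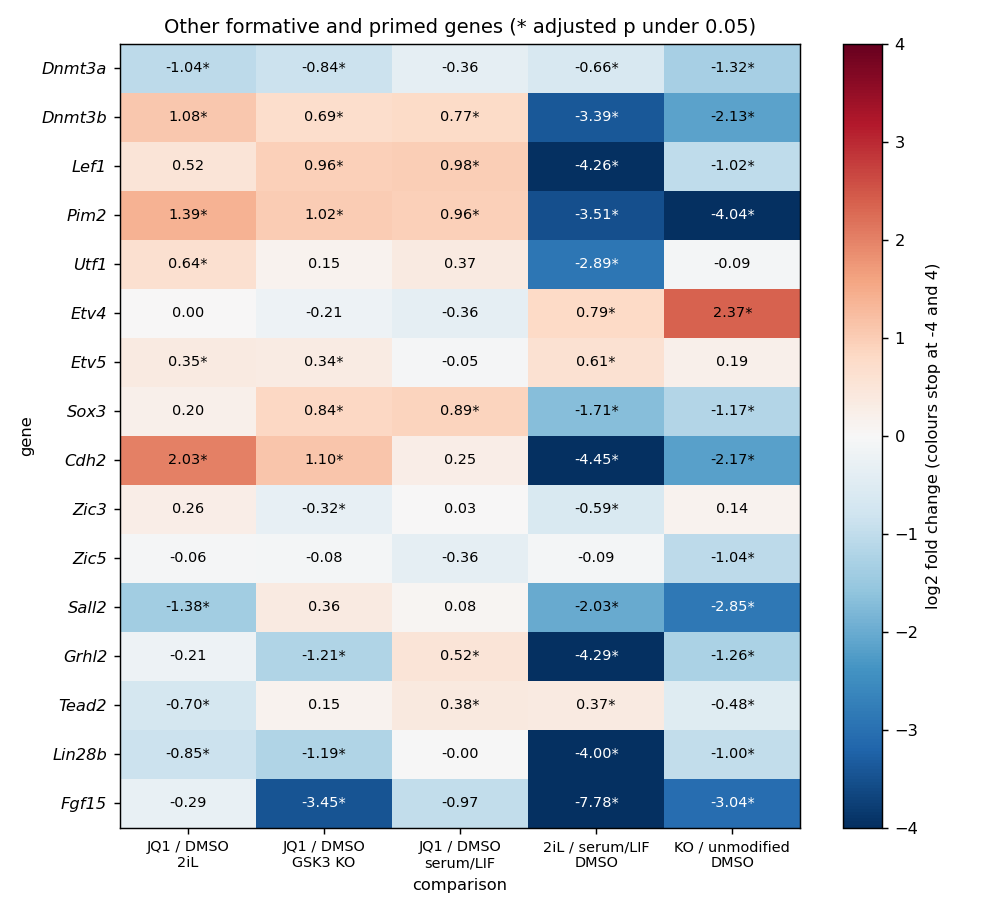
Log2 fold change of 16 other formative and primed genes for JQ1 over DMSO in the 3 settings and for the medium and genotype comparisons without JQ1, with an asterisk where the adjusted p is under 0.05 and colours that stop at -4 and 4. Dnmt3b and Pim2 are positive with an asterisk in all 3 JQ1 columns, and 12 genes are negative with an asterisk in each of the last 2 columns.

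Among 10 genes of FGF signalling, 8 were lower and 2 higher (Fgf4 and Fgfr4) in 2iL than in serum/LIF, where 26.5% and 28.3% of all genes passed in these directions. In knockout relative to unmodified cells 4 were lower and 4 higher, where 21.0% and 18.9% passed. With JQ1, 3 rose and 1 fell in 2iL (median 0.45), 4 fell in knockout cells (median -0.31), and 4 rose (Dusp6, Egr1, Fgfr2 and Spry4) and 2 fell (Fgf4 and Fgf8) in unmodified serum/LIF cells (median 0.23). Over all genes, 11.2% rose and 17.3% fell in 2iL, and 14.6% rose and 19.5% fell in knockout cells. In unmodified serum/LIF cells, 8.54% of all genes rose and 12.8% fell. Among the 10 genes, the immediate early gene Egr1 had the largest rise there, 1.80 ± 0.27 (adjusted p = 0.000688). Fgf8, which like Fgf5 encodes a ligand of the postimplantation embryo, had 5.71 ± 0.276 CPM with JQ1 against 31.5 ± 6.14 CPM with DMSO in unmodified serum/LIF cells, a log2 change of -2.46 ± 0.22 (adjusted p = 2.59e-05). In knockout cells Fgf8 had 0.675 ± 0.226 CPM with JQ1 against 0.290 ± 0.0934 CPM with DMSO (change 1.13 ± 0.45, adjusted p = 0.067). Fgf4, the ligand that naive cells make, had 17.9 ± 0.396 CPM with JQ1 against 66.9 ± 1.24 CPM with DMSO in knockout cells (change -1.90 ± 0.19, adjusted p = 2.26e-05), and 21.4 ± 5.23 against 45.1 ± 13.1 CPM in unmodified serum/LIF cells (change -1.07 ± 0.19, adjusted p = 0.0021). The response of Fgf4 in 2iL was more positive than in serum/LIF by 1.52 ± 0.26 (adjusted p = 0.00602). Of 13 naive pluripotency genes, a list that also holds Fgf4, 3 rose and 1 fell with JQ1 in 2iL, 5 fell in knockout cells, and 11 fell in unmodified serum/LIF cells, with medians of 0.32, -0.34 and -0.98. The shares of all genes that passed in either direction were 28.5%, 34.1% and 21.3%. Without regard to direction, the counts in 2iL and knockout cells lay near these shares. The directions were uneven, since all 5 genes called in knockout cells fell, where 19.5% of all genes fell and 14.6% rose. In 2iL, 3 of the 13 rose where 11.2% of all genes rose, and 1 fell where 17.3% fell. Whether these counts differ from the background was not tested.

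For each of the 7 genes the 3 most similar genes were taken by Pearson's r of log2(CPM + 1) over the 12 libraries, among 11911 genes with a mean of at least 5 CPM in some group. The 12 libraries form 6 groups, so the coefficients mostly describe the group pattern. Pou3f1 was closest to Dtx4 (r = 0.996) and Zfp608 (0.993). Fgf5 was closest to Cyp26a1 (0.980), which encodes an enzyme that breaks down retinoic acid, Has2 (0.978), a hyaluronan synthase gene, and Hand1 (0.977), a mesodermal transcription factor gene. Otx2 was closest to Map7d3 (0.954), Cdk2ap1 (0.949) and the zinc finger gene Bcl11b (0.949). Sox4 was closest to the fatty acid binding protein gene Fabp5 (0.989), Armcx3 (0.987) and Asphd2 (0.984), and Tcf15 to Krr1 (0.965), Lyar (0.962) and Mageh1 (0.947), the first of which encodes a ribosome assembly factor. Foxd3 had the weakest matches, AU018091 (0.900), the osteopontin gene Spp1 (0.899) and C330024D21Rik (0.899), and Zic2 was closest to Osgep (0.935), Mmaa (0.908) and Ccdc130 (0.906). By Spearman's rho, AU018091 and Krr1 kept first place for their genes and Ccdc130 took it for Zic2, whereas Has2 was in place 629 for Fgf5 and Zfp608 in place 228 for Pou3f1.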

How the data were processed

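Sequencing libraries of mouse embryonic stem cell RNA were made with an mRNA-seq kit and read as paired ends, per the labels' protocols. The authors' tables give expected counts and TPM per gene and sample. Per the submitters' processing notes, the tools included RSEM and STAR 2.5.2 on the build mm10, with bcl2fastq and DESeq2 1.18.1. The annotation release, strand setting and filters are not given in the sources used here. The deposited expected count values were rounded to whole numbers and tested with edgeR 4.0.16 in R 4.3.3. The deposited TPM values were used to compare levels between genes, since they are per length.

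Gene symbols came from GENCODE M21, in which 52403 of 52550 identifiers were found without version. Genes were kept with filterByExpr (minimum count 10, minimum total 15), scaled by TMM and fitted with glmQLFit over the 6 groups, and contrasts were tested with glmQLFTest (two-sided), with Benjamini-Hochberg adjustment over 16987 genes and a threshold of 0.05. The fit had 6 residual degrees of freedom and a common biological coefficient of variation of 0.129. Standard errors were taken from the fold change and F as |log2 fold change| over the square root of F. No replicate pair agreed within counting noise (chi-square per gene 7.94 to 36.4).

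The 7 genes and all lists were chosen with earlier results of these data known. The text names the 7 genes, list genes that pass or that a result turns on, and the 3 genes most like each by Pearson's r, of which 1 is not reported here. Dnmt3b and the other list genes with values were taken from those that passed. Alternatives were no filter, 1 CPM in 4 libraries, RLE scaling, a replicate block, only the libraries compared, DESeq2 1.42.0 and leaving out each library. The test of 2iL minus knockout responses was added after the data were seen. The scripts were tested on simulated data.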

Additional observations from a re-analysis of the deposited data

Results flagged for a closer look

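The 8 differences between JQ1 responses that passed the test of the difference itself are listed here, since a gene then responded differently in 2 settings. Between 2iL and unmodified serum/LIF cells, the log2 response to JQ1 differed by -2.42 for Tcf15 and by -2.05 for Sox4. Between knockout and unmodified cells in serum/LIF, it differed by 1.79 for Otx2 and by -3.12 for Foxd3. Between 2iL and knockout cells, it differed by -1.94 for Otx2, 4.33 for Foxd3, -1.32 for Tcf15 and -2.18 for Sox4. Both Otx2 differences and the last Tcf15 difference lost their call in most fits that left out 1 library.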

How the results depend on the processing

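Of 56 tested values of the 7 genes, 30 were called, 19 of these kept their call and direction under every alternative run, 11 lost the call under at least 1, and none reversed. Of the uncalled values, 7 passed under some alternative: Sox4 with JQ1 in unmodified serum/LIF cells, Otx2 with JQ1 in knockout cells, Zic2 for 2iL over serum/LIF, Foxd3 and Zic2 for the 2iL minus serum/LIF response, and Zic2 and Tcf15 for the knockout minus unmodified response. The cause was not tested. RLE scaling changed no call, and no scaling moved the median of all genes by more than 0.069.

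Leaving out 1 library at a time gave 1927 to 2822 called genes for JQ1 in unmodified serum/LIF cells, 2530 to 4632 in 2iL and 3186 to 3998 in knockout cells, beside 3623, 4834 and 5799. It gave 4512 to 5651 for knockout over unmodified cells (6790), 330 to 784 for the difference in JQ1 response between 2iL and serum/LIF (706), 212 to 1779 for that between knockout and unmodified cells (742) and 332 to 3071 for that between 2iL and knockout (2055). Without the filter these 3 differences had 1478, 2011 and 3153 calls. With only the libraries compared there were 2245 calls for JQ1 in unmodified serum/LIF cells, 431 for the difference between 2iL and serum/LIF and 3170 for that between 2iL and knockout. DESeq2 made 1303 calls for the difference between knockout and unmodified cells, 39.4% of them higher, against 28.6% in the edgeR fit.

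The sign of 8 uncalled values changed when 1 library was left out, with ranges of -0.89 to 0.10 for Zic2, JQ1 in unmodified serum/LIF cells, -0.74 to 0.05 for Pou3f1, -1.83 to 0.094 for Fgf5 and -0.27 to 0.43 for Foxd3, JQ1 in 2iL, -0.66 to 0.061 for Foxd3, 2iL over serum/LIF, -0.14 to 0.40 for Foxd3, knockout over unmodified cells, -0.58 to 0.37 for Otx2, 2iL minus serum/LIF response, and -0.38 to 0.20 for Zic2, 2iL minus knockout response.

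The labels do not say that equal replicate numbers mark paired samples, and correlations of same-numbered deviations ran from -0.186 to 0.185 over 15 pairs of groups. Between JQ1 and DMSO of 1 setting they were 0.185 in serum/LIF, 0.118 in 2iL and 0.117 in knockout cells. With a replicate block, 4011, 5147, 6222, 9572, 7071, 920, 1110 and 2492 genes were called in the 8 comparisons, in the order serum/LIF, 2iL and knockout for JQ1, 2iL over serum/LIF, knockout over unmodified cells and the 3 differences in response. The block changed 1 call on the 7 genes: the Otx2 change with JQ1 in knockout cells passed (0.84, adjusted p = 0.00612). With 2 libraries a group, the low levels of Fgf5 in 2iL limit its test there, and no fit of the 2iL libraries alone could be had for it.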

Other observations

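Of 9 paralogs of the 7 genes, 6 passed the filter on low counts, and of these only Sox11 rose or fell with JQ1 in any setting. Over all genes, 28.5% passed with JQ1 in 2iL, 34.1% in knockout cells and 21.3% in unmodified serum/LIF cells. Otx1, Pou3f3, Foxd1 and Zic1 were low, with highest group means of 1.33, 2.05, 2.52 and 0.403 CPM, which limits their tests. Sox12, another paralog of Sox4, had changes of 0.06 in 2iL, 0.42 in knockout cells and 0.54 in unmodified serum/LIF cells (edgeR adjusted p = 0.859, 0.16 and 0.0957). Sox11, a SoxC relative of Sox4, had 2.18 ± 0.268 CPM with JQ1 against 0.414 ± 0.0661 CPM with DMSO in 2iL, 68.1 ± 4.12 against 16.6 ± 4.19 CPM in knockout cells, and 158 ± 20.2 against 84.9 ± 12.7 CPM in unmodified serum/LIF cells (SD, n = 2 each). It rose in all 3 settings, by log2 changes of 2.40 ± 0.36, 2.03 ± 0.17 and 0.90 ± 0.16 (edgeR adjusted p = 0.000482, 6e-06 and 0.00202). In 2iL it therefore rose where Sox4 fell. The Sox11 response was more positive in knockout than in unmodified serum/LIF cells by 1.14 ± 0.23 (adjusted p = 0.0171).

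Among 7 genes for E protein partners and Id inhibitors of factors such as Tcf15, Id1, Id2 and Id3 were lower in 2iL than in serum/LIF and lower in knockout than in unmodified cells, while Id4 was higher in both (2.46 ± 0.21 and 1.44 ± 0.21, adjusted p = 5.88e-07 and 0.000155). Of the E protein genes, only Tcf3 passed for 2iL over serum/LIF, as higher (0.36 ± 0.09, adjusted p = 0.00441). Only Tcf4 passed for knockout over unmodified cells, as lower (-0.64 ± 0.09, adjusted p = 0.000161). Over all genes, 28.3% were higher and 26.5% lower in 2iL, and 18.9% were higher and 21.0% lower in the knockout. Id1 had 1.15 ± 0.257 CPM in 2iL with DMSO, 22.9 ± 0.00373 CPM in knockout cells with DMSO and 77.7 ± 18.7 CPM in unmodified serum/LIF cells with DMSO. With JQ1, Id1 rose in unmodified serum/LIF cells to 148 ± 2.75 CPM (0.93 ± 0.17, adjusted p = 0.00259), and the knockout response was lower by -1.31 ± 0.25 (adjusted p = 0.0128). Tcf4 fell with JQ1 in unmodified serum/LIF cells (-0.46 ± 0.09, adjusted p = 0.00476) and in 2iL (-0.54 ± 0.09, adjusted p = 0.00126). Id4 and Tcf3 rose in knockout cells (1.14 ± 0.20 and 0.25 ± 0.09, adjusted p = 0.000928 and 0.0477). Over all genes, 8.54% rose and 12.8% fell in unmodified serum/LIF cells, 11.2% and 17.3% in 2iL, and 14.6% and 19.5% in knockout cells.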
